A study of Mus musculus with 2 samples.

Results

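*Rbms1*, *Rbms2* and *Rbms3* encode the mouse RBMS proteins, and the sites of DLX2 signal in and around these 3 genes were mapped in the embryonic upper jaw. The study profiled DLX2 by CUT&Tag in cells of the maxillary process of wildtype C57BL/6 embryos at E12.5, in 2 libraries of 1 group called replicate 1 and replicate 2 here. Neither library carries a transgene or other treatment, and no library of another antibody, input or genotype was analysed here, so no groups could be compared and no test was made. CUT&Tag uses an antibody to bring a transposase to its target, and the tagged DNA piles up into peaks where the target sits. The members are the peaks whose midpoint lies in the RefSeq extent of a gene or within 100 kb of it, in build GRCm38 (mm10). They number 47 peaks of replicate 1 and 76 of replicate 2, or 123 of the 90154 peaks listed in all. The deposited lists hold more peaks than the study describes and may have been made at another threshold, so the counts below belong to these lists. A shared region is a stretch covered by a peak of each replicate, and 26 of the 10921 shared regions lay in these windows. A stricter −log10 q of at least 5 in both replicates was reached by 6 of the 19 shared regions inside *Rbms3*. The genes were chosen by the number of shared regions inside *Rbms3*, so the counts below describe that choice and support nothing. How many embryos went into a library is not given in the sources used here.

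RBMS proteins (RNA-binding motif, single-stranded interacting) carry a pair of RNA recognition motifs and bind A- and U-rich stretches of RNA as well as single-stranded DNA. *Rbms1* was first described as MSSP, a protein that binds single-stranded DNA upstream of the *Myc* gene. In zebrafish, *Rbms3* is known to act in the crest-derived cartilage of the jaw through transcripts of the TGF-beta pathway. *Dlx2*, a homeobox gene of the same crest-derived mesenchyme and of the oral epithelium, encodes a protein whose homeodomain prefers sites with a TAATT core.

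The 3 genes differ widely in size and surroundings. *Rbms3* (gene ID 207181) extends over 1057 kb of chromosome 9, from 116572746 to 117629913, on the minus strand. It stands far from other coding genes, with *Zcwpw2* 294 kb beyond its upstream end and *Tgfbr2*, which encodes the type II TGF-beta receptor, 397 kb beyond its downstream end. Inside it the annotation lists 3 lncRNA genes and a pseudogene, namely *Gm39452*, *Gm17396*, *Gm39451* and *Gm18489*. *Rbms1* (gene ID 56878) covers 213.7 kb of chromosome 2, from 60750193 to 60963880, and has *Itgb6* as its nearest coding neighbour, 27.6 kb away. *Rbms2* (gene ID 56516) is 50.83 kb long on chromosome 10, from 128129470 to 128180297. It lies among 12 coding genes that meet its window, and *Baz2a* ends 0.167 kb from it. All 3 genes are on the minus strand, so the upstream end is the one with the higher coordinate. Exons and introns are not part of the annotation used here, so positions are given as distances from gene starts.

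Each gene has 2 starts in the RefSeq promoter table, which gives 250 bases before and 50 after each start in GRCm38.p6. The promoters of *Rbms3* are shown because its starts, 377 kb apart, divide the gene and because the shared region nearest to any start of the 3 genes lies beside the upstream start. Capitals mark the homeodomain-type motifs searched, which were TAATTA as well as TAATTG, the latter also in its reverse form CAATTA, so that both strands were covered.
Rbms3 upstream start, chr9:117629864-117630163, minus strand: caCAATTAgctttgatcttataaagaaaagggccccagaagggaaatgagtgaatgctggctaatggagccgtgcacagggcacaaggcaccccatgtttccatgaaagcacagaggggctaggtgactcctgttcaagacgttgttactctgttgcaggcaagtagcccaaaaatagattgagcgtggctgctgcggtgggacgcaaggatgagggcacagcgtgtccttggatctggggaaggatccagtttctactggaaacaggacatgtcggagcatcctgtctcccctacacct
Rbms3 inner start, chr9:117252434-117252733, minus strand: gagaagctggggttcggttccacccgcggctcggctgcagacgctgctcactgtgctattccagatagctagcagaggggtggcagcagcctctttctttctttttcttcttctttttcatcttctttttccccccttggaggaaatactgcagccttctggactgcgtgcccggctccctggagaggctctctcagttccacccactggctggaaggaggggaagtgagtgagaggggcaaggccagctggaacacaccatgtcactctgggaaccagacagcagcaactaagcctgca
The upstream promoter held 1 motif, CAATTA, which begins 248 bases before the start, and the inner promoter held 0. The promoters of *Rbms1* and *Rbms2* held 0 at either start. Of 32851 promoter windows of this length, 12.4% held 1 of these motifs. The GC content was 52.0% at the upstream and 56.7% at the inner start of *Rbms3*, against a median of 52.7% over all windows (quartiles 45.7 and 61.7%). It was 68.3 and 82.7% at the starts of *Rbms1*, and 41.0 and 50% at those of *Rbms2*.

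No promoter window of the 3 Rbms genes was met by a peak of either replicate. The upstream start of *Rbms3* came nearest, with a shared region at chr9:117628733-117628838, 1.07 kb inside the gene. Its fold enrichment was 4.94 in replicate 1 and 5.56 in replicate 2. Fold is taken here as fragments at the summit plus 1 over the background of the same library plus 1. The added 1 makes it smaller than a plain ratio, and more so where the background is low. Over all peaks the median background was 0.484 fragments in replicate 1 and 1.29 in replicate 2. Folds of the replicates are therefore not on 1 scale. From the inner start of *Rbms3* the nearest shared region was 18.6 kb away and the nearest replicate 2 peak 6.56 kb away. From the starts of *Rbms2* it was 24.8 and 28.5 kb to a shared region, and from those of *Rbms1* 208 and 206 kb.

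In the windows of the 3 genes, peaks met the promoter of 1 other gene, the lncRNA gene *Gm39449* downstream of *Rbms3*. This is the only shared region of the windows whose letters are partly known here, so the promoter is shown, with the 64 bases under the shared region in capitals.
Gm39449 start, chr9:116524881-116525180, plus strand: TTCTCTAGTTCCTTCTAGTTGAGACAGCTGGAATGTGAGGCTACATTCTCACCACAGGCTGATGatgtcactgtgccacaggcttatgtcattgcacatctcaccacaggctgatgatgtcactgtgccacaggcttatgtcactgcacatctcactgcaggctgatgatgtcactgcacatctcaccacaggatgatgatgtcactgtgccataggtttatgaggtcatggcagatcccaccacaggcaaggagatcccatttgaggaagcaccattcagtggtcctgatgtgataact
The fold there was 3.49 in replicate 1 and 4.28 in replicate 2. The window is repetitive: 163 of its 300 bases lie in 15-base runs that occur in it more than once, and its longest repeated run is 45 bases. Of all promoter windows, 0.183% have as many bases in such runs. These counts are for the whole window and were not made for the 64 bases under the shared region. That region is 138 bp long, and its other letters are not known here. The window held 0 of the homeodomain-type motifs. The part of repeated sequence in this signal was not tested.

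Inside *Rbms3*, replicate 1 had 33 peaks, replicate 2 had 50, and 19 shared regions were found. That is 31.2 and 47.3 peaks and 18.0 shared regions per Mb. Over the autosomes, replicate 1 had 11.6 peaks per Mb, replicate 2 had 25.4, and there were 4.50 shared regions per Mb. Inside *Rbms1* there were 2 and 4 peaks and 0 shared regions, with densities of 9.36 and 18.7 peaks per Mb that lie below those of the autosomes in both replicates. Inside *Rbms2* there were 2 and 3 peaks and 2 shared regions. Its 39.3 shared regions per Mb rest on those 2 regions alone, and the density of *Rbms3* is the only member density that rests on more. A shared region was found inside 14.6% of the 21779 protein-coding genes, and in 53.0% of those of at least 100 kb. Among 902 coding genes of 150 to 300 kb, 45.0% had 0 shared regions, as *Rbms1* did. Among 2135 coding genes of 40 to 65 kb, 4.36% had 2 or more, as *Rbms2* did.

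**Figure D1:**
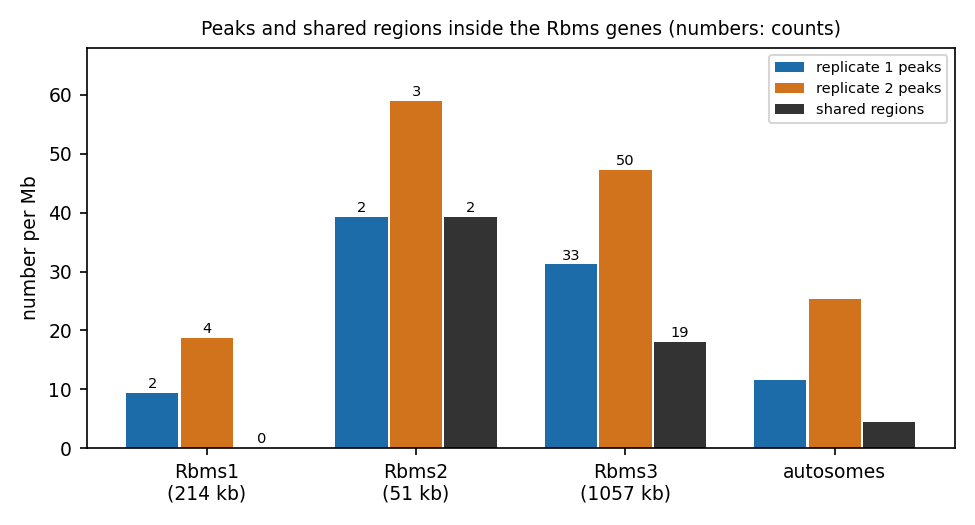
Number of replicate 1 peaks, replicate 2 peaks and shared regions per Mb inside each gene and over the autosomes, with the counts above the bars of the genes. Rbms3 stands above the autosomes in each measure, with 19 shared regions, Rbms1 stands below them with 0, and the high bars of Rbms2 rest on 2 and 3 peaks.

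The shared regions of *Rbms3* ran through the gene from end to end. The midpoint of the first lay 1.13 kb from the upstream start and that of the last 35.9 kb from the downstream end. Counted in 4 equal parts from the upstream start, the gene held 6, 4, 4 and 5 shared regions. Peaks of replicate 1 numbered 8, 6, 9 and 10 in the same parts, and those of replicate 2 numbered 12, 11, 14 and 13. The 377 kb between the starts held 9 shared regions, or 23.8 per Mb. The 680 kb from the inner start to the downstream end held 10, or 14.7 per Mb. The densities of single replicates were closer between these parts, with 31.8 and 30.9 per Mb in replicate 1 and 45.0 and 48.5 per Mb in replicate 2. None of the 19 regions overlapped a gene listed inside *Rbms3*.

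**Figure D2:**
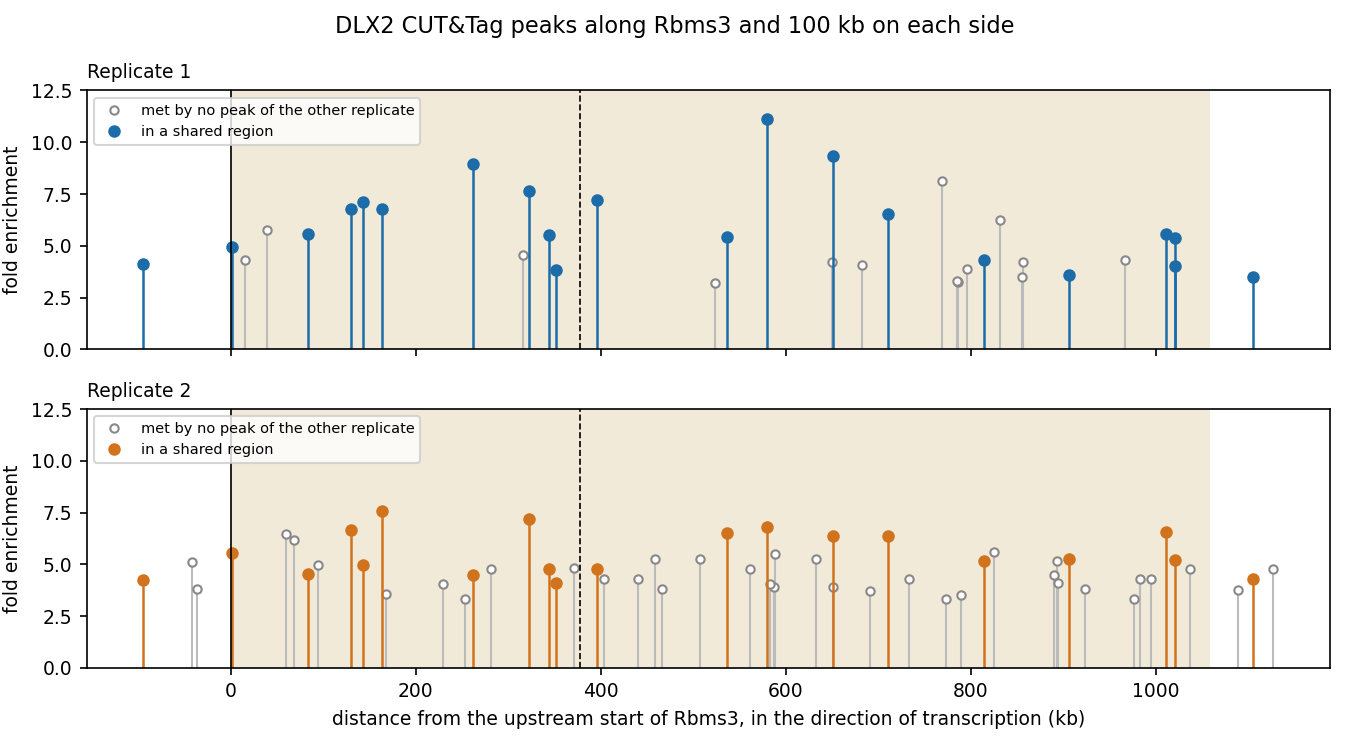
Fold enrichment of each peak (vertical axis) against its distance from the upstream start of Rbms3 (horizontal axis, kb), for replicate 1 above and replicate 2 below; filled points are in a shared region and open points are not. The shaded span is the gene, the solid line its upstream start and the dashed line its inner start. Filled points occur along the whole gene, and the highest, at 11.1 in replicate 1, lies 579.5 kb from the upstream start.

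Neighbouring shared regions of *Rbms3* lay a median of 53.3 kb apart, with quartiles of 21.0 and 90.2 kb over 18 distances. Even placement over the whole gene, ends included, would give 52.9 kb, and the mean of the 18 distances was 56.7 kb. The spacing was not even, since the distances ranged from 0.221 to 141 kb. In coding genes of at least 500 kb the median was 70.9 kb (quartiles 24.6 and 164 kb, 471 distances), and over all chromosomes it was 89.4 kb (quartiles 30.7 and 226 kb). A higher density of regions gives shorter distances by construction, so the median adds little to the counts. Of its 18 distances, 3 were under 10 kb, or 16.7%, against 10.2% in the long genes and 10.7% over all chromosomes. The shortest of them separates regions at chr9:116608571-116608705 and chr9:116608813-116608904, which are met by the same 455 bp peak of replicate 2, so the 19 regions rest on 19 peaks of replicate 1 and 18 of replicate 2. A group of 3 regions within 30.2 kb lay upstream of the inner start, at 321.9, 344.3 and 352.1 kb from the upstream start. Another 3 lay within 9.98 kb, beginning at chr9:116608571 and including the pair above. A further 3 lay within 33.2 kb, beginning at chr9:117466450. The longest stretch without a shared region was 141 kb, from 396 to 537 kb. It was not empty of signal, since it held 1 peak of replicate 1 and 5 of replicate 2.

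**Figure D3:**
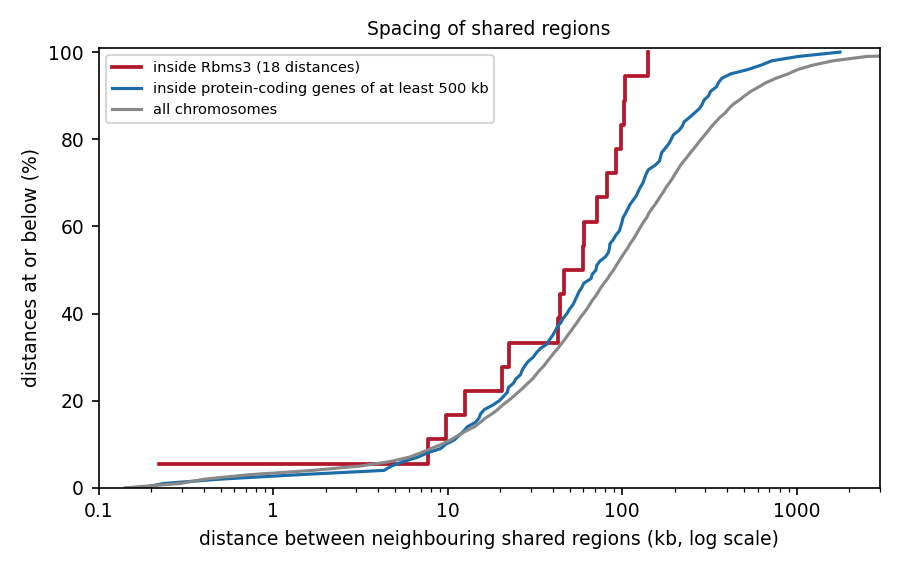
Share of distances between neighbouring shared regions (vertical axis, %) at or below a given distance (horizontal axis, kb, log scale), for Rbms3, for coding genes of at least 500 kb and for all chromosomes. The medians are 53.3, 70.9 and 89.4 kb, and the curve of Rbms3 ends at 141 kb while the others go on to longer distances.

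Among these regions the fold ran from 3.60 to 11.1 in replicate 1, a 3.09-fold span, and from 4.11 to 7.55 in replicate 2, a 1.84-fold span. The lower of both folds had a median of 4.95 over the 19 regions, with a range of 3.60 to 7.20, beside a median of 4.51 over all shared regions. The median fold was 5.56 in replicate 1 and 5.24 in replicate 2, which differ by 0.228 as an SD (n = 2). A fold of at least 5 in both replicates was reached by 9 of the 19 regions, or 47.4%, against 35.1% of all shared regions. A −log10 q of at least 5 in both, a stricter threshold set here on the peak caller's values, was reached by 6 of 19, or 31.6%, against 15.6%. The regions were selected from the same peak lists, so these shares are a description and were not tested.

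The region with the highest lower fold, at chr9:117307958-117308123, lay 321.9 kb from the upstream start, where replicate 1 gave 7.64 and replicate 2 gave 7.20. Its summits were 9 bp apart. The next lay at chr9:117050268-117050481, where replicate 1 reached 11.1, its highest value in the gene, and replicate 2 reached 6.82. Next by lower fold came chr9:117466450-117466647, 163.4 kb from the upstream start. It had 6.76 in replicate 1 and 7.55 in replicate 2, the highest replicate 2 value in the gene. These 3 regions do not share their order between the replicates. At chr9:117499591-117499855, 130.2 kb from the upstream start, the folds were 6.80 and 6.66. At chr9:116978662-116978972 they were 9.32 and 6.36.

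The replicates ranked the regions of *Rbms3* differently. Over the 19 regions their folds had a Spearman's rho of 0.290, given as a description, and over all 10921 shared regions the rho was 0.440. The regions share both libraries and their depth, so they are not independent points. The widest gap was at chr9:117368203-117368392, with 8.97 in replicate 1 and 4.50 in replicate 2. The part of depth and background in such gaps was not tested. The weakest region by its lower fold, chr9:116723220-116723302, had 3.60 in replicate 1 and 5.24 in replicate 2. Replicate 1 was the higher in 11 of 19 regions, or 57.9%, against 50.4% of all shared regions. The summits lay a median of 22.0 bp apart, against 63.0 bp over all shared regions. In 12 of 19 regions, or 63.2%, they were within 50 bp, against 43.0% of all shared regions. A shared region needs overlapping peaks, so close summits are partly fixed by that rule and cannot be set against the agreement of folds.

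**Figure D4:**
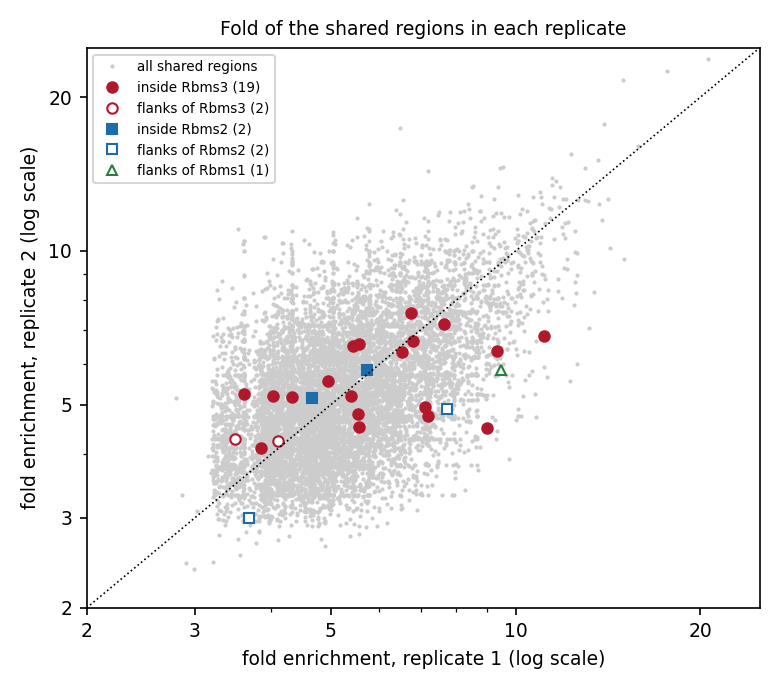
Fold enrichment of each shared region in replicate 1 (horizontal axis) and replicate 2 (vertical axis), both on log scales, for all shared regions in grey and for those inside (filled) and beside (open) the Rbms genes. The dotted line marks equal folds. The 19 regions inside Rbms3 lie on both sides of it, within the grey cloud, up to 11.1 in replicate 1 and 7.55 in replicate 2.

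Few fragments stand behind each value. From the fold and the −log10 p of each peak, the summits of the 19 regions were inferred to hold 4 to 18 fragments in replicate 1 (median 8.0) and 9 to 17 in replicate 2 (median 11.0). Over all listed peaks the medians were 6.0 and 9.0 fragments. The local background of the 19 regions lay between 0.387 and 0.706 fragments in replicate 1 and between 1.1 and 1.74 in replicate 2, and the lowest backgrounds of the whole libraries were 0.387 and 1.1. The exact 95% Poisson interval is 1.09 to 10.2 for 4 fragments and 10.7 to 28.4 for 18 in replicate 1. In replicate 2 it is 4.12 to 17.1 for 9 fragments and 9.90 to 27.2 for 17. These are the lowest and highest of 19 values, so setting their intervals side by side is no test of a difference in strength.

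Of the replicate 1 peaks inside *Rbms3*, 19 of 33 were met by a replicate 2 peak, or 57.6% (95% Wilson interval 40.8 to 72.8%), against 38.9% of all replicate 1 peaks. Of the replicate 2 peaks there, 18 of 50 were met, or 36.0% (interval 24.1 to 49.9%), against 17.2% of all. These shares depend on what counts as met. Where 50% of each peak had to be shared, they were 30.3% in replicate 1 against 22.4% of all peaks, and 20% in replicate 2 against 10.1%. Both lists were also cut to peaks with a −log10 q of at least 5 before matching. Of those, 6 of 10 replicate 1 peaks were met, or 60%, beside 59.1% of all such peaks. Of the replicate 2 peaks, 6 of 10 were met, beside 24.6%. A partner below that threshold did not count, so these shares leave out matches to weaker peaks. The intervals cover counting error only. *Rbms3* was chosen by its number of shared regions, and these shares rest on that number. Setting the intervals against the shares of all peaks is therefore no test. The other 14 replicate 1 peaks had a median fold of 4.22 and a median of 5.0 fragments. In the 4 parts from the upstream start they numbered 2, 2, 5 and 5. Those parts held 8, 6, 9 and 10 replicate 1 peaks in all. Unmet replicate 2 peaks numbered 6, 7, 10 and 9 there, of 12, 11, 14 and 13. Among the 14 unmet replicate 1 peaks was a peak at chr9:116861420-116861605 with a fold of 8.11 and 11 fragments. The other 32 replicate 2 peaks had a median fold of 4.28, and their highest was 6.45. Of these unmet peaks, 1 of each replicate came within 1 kb of a peak of the other replicate.

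*Rbms1*, in contrast, had no shared region inside the gene. Its replicate 1 peaks had folds of 4.25 and 7.73, and its replicate 2 peaks had folds of 3.78, 3.81, 3.81 and 4.28. The stronger replicate 1 peak, at chr2:60874705-60874953, rested on 11 fragments and lay 6.49 kb from the inner start of *Rbms1*. Thus 0 of 2 replicate 1 peaks were met (95% Wilson interval up to 65.8%) and 0 of 4 replicate 2 peaks (up to 49.0%). Both intervals hold the 38.9 and 17.2% met over the whole lists, and 45.0% of coding genes of 150 to 300 kb also had 0 shared regions, so nothing particular to *Rbms1* can be read from its count. The only shared region in its window lay 74.8 kb beyond its downstream end, inside *Itgb6*, an integrin subunit gene of epithelia. At chr2:60675332-60675460 this region reached 9.46 in replicate 1 and 5.85 in replicate 2, higher in replicate 1 than all but 1 of the regions inside *Rbms3*.

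Inside *Rbms2* both shared regions lay in the downstream part of the gene. The region at chr10:128145374-128145546, 34.84 kb from the upstream start, reached 5.73 in replicate 1 and 5.84 in replicate 2. The region at chr10:128131407-128131477, 48.85 kb from that start, had 4.66 and 5.15. These values lie within the range of the regions inside *Rbms3*. In the flanks, 1 shared region lay inside *Baz2a*, which encodes a chromatin remodelling subunit, where replicate 1 gave 7.73 and replicate 2 gave 4.91. The second lay inside *Gls2*, a glutaminase gene, with 3.68 and 3.00, the lowest value in replicate 2 among the 26 shared regions of the windows.

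The flanks of *Rbms3* held 2 shared regions in 200 kb, or 10 per Mb, against 18.0 inside the gene and 4.50 over the autosomes. The flank density rests on those 2 regions alone. Beside the region at *Gm39449*, 1 lay inside the lncRNA gene *Gm39450*, 94.7 kb beyond the upstream end and so just inside the limit of 100 kb, with folds of 4.10 and 4.24. The first shared regions outside that limit lay 203 kb upstream, with folds of 5.62 and 8.58, and 121 kb downstream, with 5.54 and 5.86. For *Rbms1* and *Rbms2*, the first ones outside lay 119 kb downstream of each gene.

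Set beside other long genes, *Rbms3* had the highest number of shared regions and, among the 227 of at least 500 kb, the fourth highest density. The place by density depends on the length limit: it was 45 among 990 genes of at least 200 kb and 1 among 59 of at least 1000 kb. The 227 genes held a median of 2.0 shared regions (quartiles 1.0 and 4.0), and 48 of them held 0. By shared regions per Mb, *St6galnac3*, a sialyltransferase gene, stood above *Rbms3* with 22.8. The genes next below were *Camta1*, a transcription activator gene, with 16.2 and *L3mbtl4* with 15.7. By number, *Pard3*, which encodes a cell polarity protein, had 15, the adhesion genes *Cdh13* and *Sdk1* had 14 each, and *Camta1* had 13. In single replicates *Rbms3* held place 7 by replicate 1 peaks per Mb and place 19 by replicate 2 peaks per Mb. These genes are ranked on the measure that chose *Rbms3*, and their order was not tested.

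**Figure D5:**
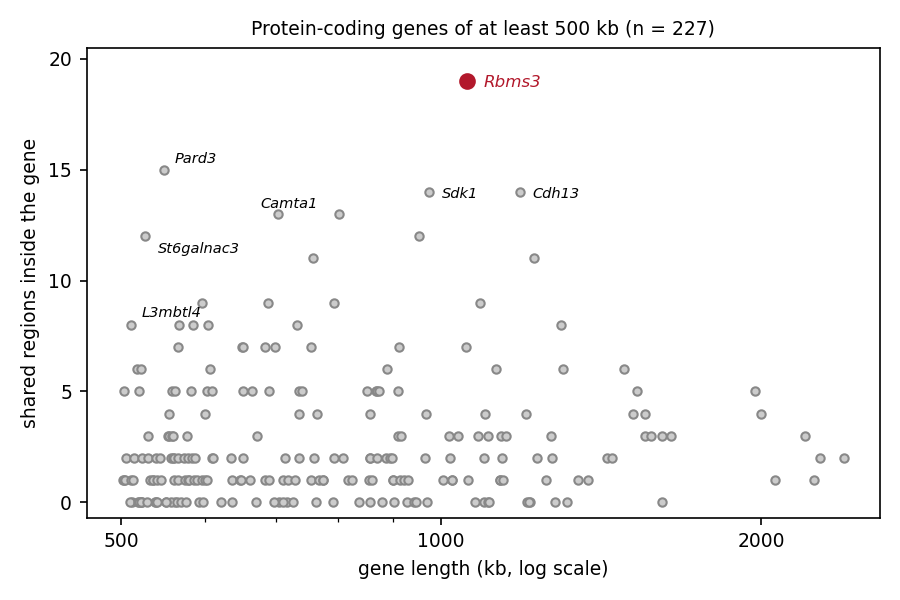
Number of shared regions inside each of the 227 protein-coding genes of at least 500 kb (vertical axis) against gene length (horizontal axis, kb, log scale). Rbms3, in red, has 19 at 1057 kb, above Pard3 with 15, and most genes have 4 or fewer.

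Other genes for RNA-binding proteins of development and splicing were counted in the same way, from a list of 31. A shared region was found inside 10 of them, or 32.3%, beside 14.6% of all coding genes. Of the 31 genes, 16 are at least 100 kb long, so length enters this share. A shared region was found inside 7 of those 16, beside 53.0% of all coding genes of that size. *Rbfox3*, which encodes the neuronal splicing factor known as NeuN, had 10 shared regions in 421.8 kb, or 23.7 per Mb. It was 1 of 5 listed genes with a higher density than *Rbms3*; the others were *Celf3* with 54.0, *Nova2* with 25.4, *Msi1* with 20.7 and *Mbnl2* with 19.2 per Mb, which rest on 1 to 3 shared regions each. Its relative *Rbfox1* had 5 in 1528 kb, or 3.27 per Mb, although it is longer than *Rbms3*. *Mbnl2*, a muscleblind splicing factor gene, had 3. *Celf2* and *Msi1* had 2 each, and *Celf3*, *Khdrbs2*, *Khdrbs3*, *Nova2* and *Rbm20* had 1 each. *Msi2* had 4 peaks in replicate 1 and 22 in replicate 2 but 0 shared regions.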

How the data were processed

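DLX2 CUT&Tag was measured in 2 libraries of wildtype maxillary process cells at E12.5. Per the submitters' processing notes, the authors trimmed reads with Trim Galore 0.4.5, aligned them with Bowtie 1.1.2 to mm10 and called peaks with MACS2 2.2.7. The study's methods name Trim Galore and bowtie2 in other versions. The labels describe sonicated, precipitated chromatin, the methods transposase tagging, and which account holds was not settled here. Settings of the peak caller are not given in the sources used here. Each replicate has its own peak list, which ends at a q of 0.1.

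The deposited fold is a ratio of summit to local background within a library. The −log10 p and −log10 q deposited by the authors are those of the peak caller, and the deposited score is the whole part of 10 times the −log10 q. The summit is given as bases from the peak start.

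Shared regions needed at least 1 bp covered by a peak of each replicate, and regions were placed by their midpoint. Read totals are not in the peak lists. Fragments and background at a summit were inferred by taking the fold as fragments plus 1 over background plus 1 and p as a Poisson upper tail. A whole number was found for 100% of the 47 and 76 peaks, with a tolerance of 0.001. They are inferences rather than counts by the authors, and intervals cover counting error only. Genes, starts and promoter letters are from RefSeq GRCm38.p6, whose gene names and coordinates match the build of the files. All 3 Rbms genes were matched. No genome sequence was used, so letters under other peaks are not shown. Genes listed before position 3000000 were left out on chromosomes other than Y, leaving 21779 protein-coding genes. Overlaps and fragment numbers were tested on simulated data.

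The members and lists were chosen with earlier results of these data known. Described one by one were the 5 regions of *Rbms3* with the highest lower fold, all regions of *Rbms1* and *Rbms2*, the region nearest each start, the neighbours of *Rbms3* in order of density (2 above and 2 below) and the 4 other long genes with the most regions, ties included; an item that this rule names is not reported here. Other regions of *Rbms3* named for a wide gap, a low fold or close spacing, and *Rbfox3*, *Rbfox1* and *Msi2* within their list, were picked after their values were seen. Alternatives were stricter peak thresholds, other overlaps, joined regions, other flanks, 1 replicate alone and other length classes. The work used matplotlib 3.10.9, scipy 1.17.1 and pandas 2.3.3 with numpy 2.4.6 under Python 3.11.15.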

Additional observations from a re-analysis of the deposited data

How the results depend on the processing

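With 2 libraries and no control library used here, no alternative separates DLX2 sites from other recurrent signal. Of 64 alternatives to 11 results, 29 stayed within a set limit and 35 moved, and no value was tested. The limit was 1.5 times the main count, an SD between the replicates or the Wilson interval. For spacing and place that SD (3.71 kb and 8.49 places) came from the peaks of each replicate alone. It is not a spread of the shared-region values. Counts of 1 replicate alone include unmet peaks, so they can move by construction. At a −log10 q of at least 5, shared regions numbered 6 inside *Rbms3*, 0 inside *Rbms2*, 0 in the flanks of *Rbms2* and 0 in those of *Rbms3*; the median lower fold in *Rbms3* was 6.71, the spacing 71.6 kb and the share of replicate 2 peaks met 60%. At a fold of at least 5 the numbers were 9, 1, 0 and 0, the lower fold 6.36 and the spacing 65.6 kb. With 50% of each peak shared they were 10, 1, 1 and 1, the lower fold 5.50, the spacing 82.7 kb and the shares met 30.3% in replicate 1 and 20% in replicate 2. The thresholds of q and fold were applied to both lists before matching, and these filters leave fewer peaks by construction. The spacing was 59.7 kb with summits within 150 bp and also 59.7 kb with regions under 1 kb apart joined. Flanks of 50 kb held 0 shared regions at *Rbms1* and 1 at *Rbms3*, and flanks of 200 kb held 2 at *Rbms1*, 4 at *Rbms2* and 4 at *Rbms3*. Peaks of 1 replicate alone numbered 2 to 4 inside *Rbms1*, 2 to 3 inside *Rbms2* and 33 to 50 inside *Rbms3*, where their spacing was 17.5 to 22.8 kb. Among 990 genes of at least 200 kb *Rbms3* held place 45 by shared regions per Mb, and among 59 of at least 1000 kb place 1. The share of regions with a motif was not run, since it needs a genome sequence. No paired analysis was possible because the samples form 1 group.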
